A study of Mus musculus with 12 samples.

Results

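The mice described here received a regular-fat diet, either with the control level of methionine (RF.Ctrl, 3 mice) or with restricted sulfur amino acids (RF.SAAR, 3 mice), and they make up 6 of the 12 liver samples of the series. They were chosen by the diet labels of the samples, and no measured value entered the choice. All were adult male C57Bl/6J mice, and no mutant allele, transgene or drug is named for any group. The paper also describes deuterium labelling of its mice in all diet groups, by an injection of heavy water and then in the drinking water. The diets were eaten freely for 7 days by mice that were housed singly and had food removed shortly before they were killed. The control and the restricted diet both lacked cysteine, and the restricted diet held less methionine, with glutamic acid making up the nitrogen. Comparisons therefore describe a lower methionine supply in the absence of dietary cysteine, since all 12 mice ate cysteine-free diets. The other 6 mice ate high-fat diets, control or restricted (HF.Ctrl and HF.SAAR, 3 each). These diets came from another supplier than the regular-fat ones, so fat level and diet source cannot be told apart. The HF mice serve as an independent set of animals, as no mouse is shared between the RF and HF comparisons.

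Methionine and cysteine are the sulfur-containing amino acids of proteins, and cysteine also feeds the synthesis of glutathione and taurine. The liver makes most proteins of the blood plasma, synthesizes bile acids, oxidizes and makes fatty acids, and conjugates foreign and endogenous compounds for excretion. Many of these functions differ between the sexes in the mouse, because the pattern of growth hormone release differs and acts through the transcription factor STAT5. The question addressed was which hepatic genes, over the whole transcriptome and beyond the well-known stress-response genes, differed between restricted and control mice when fat intake was moderate.

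Estimated counts summed to between 17061599 and 20162590 per RF mouse. Values are given as normalized CPM, which are counts per 1000000 after scaling by the TMM method, and a gene is called higher or lower when its adjusted p from edgeR is under 0.05. Each p tests a difference between groups against the spread between mice, which was estimated over all 12 mice of the series. Hepatocyte markers were abundant in all 6 livers, with 9.64 to 11.8% of all counts in RF.Ctrl and 9.89 to 11.6% in RF.SAAR. In each group 1 library had high levels of genes of another tissue. Markers of the pancreatic acinar cell, which makes digestive enzymes, summed to 1859 CPM in RF.Ctrl mouse 1 and to 45.1 to 105 in the other RF mice, with 33 markers tested and 0 called. All 33 had lower values in RF.SAAR (median log2 fold change -3.48), and 2 of the list were at 0 in all RF mice. Genes of the adrenal gland, listed after the values were seen, were high in RF.SAAR mouse 3. Star, the cholesterol carrier of steroid-making cells, was at 102 CPM there and at 1.69 to 2.76 CPM in the other RF mice, Cyp11a1, the first enzyme of steroid hormone synthesis, at 36.3 against 0.286 to 0.486 CPM, and Chgb, a granule protein of the adrenal medulla, at 62.6 against 0.668 to 2.35 CPM. Of 8 adrenal genes tested 0 were called (median log2 fold change 3.83). Without RF.SAAR mouse 3, 37 genes were called higher and 58 lower, and without RF.Ctrl mouse 1 the counts were 35 and 64, where all mice gave 88 and 130. Leaving the acinar genes out before normalization again gave 88 genes higher and 130 lower, of which 86 and 127 were among the original calls. Skeletal muscle markers were uneven as well, from 279 to 675 CPM in RF.Ctrl and from 364 to 1045 in RF.SAAR, and 0 of 9 were called. The part of these tissues in the results was not tested beyond these values.

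A small part of the genes tested was called between restricted and control mice on regular fat. Under TMM more were called lower than higher, an order that turned round with library size alone. DESeq2 called more genes, 262 higher and 329 lower, and a gene not called is not thereby shown to be unchanged. Of 14670 genes tested, 88 (0.6%) were called higher and 130 (0.886%) lower, 218 (1.49%) in all. The genes that fell were abundant ones: their median level in RF.Ctrl was 111 CPM, against 29.8 for those that rose and 10.6 over all genes. Among the 124 genes at 1000 CPM or more in RF.Ctrl, 14 fell and 1 rose. Together the lower genes held 7.68 to 8.59% of all counts in the RF.Ctrl mice and 5.50 to 5.93% in the RF.SAAR mice, while the higher genes held 0.761 to 0.856% and 1.48 to 1.65%. These shares describe the calls and are no test of them.

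Most changes were moderate. The median log2 fold change was 0.79 among the higher genes and -0.73 among the lower ones, beside -0.00131 over all genes. At least 2-fold changes were seen in 33 higher and 32 lower genes, and 17 and 36 changed by under 1.5-fold. The 3 restricted and the 3 control mice did not overlap in any of the 218 called genes, and 18.2% of all genes tested did not overlap. Protein-coding genes made up 87 of the higher and 126 of the lower calls. Before adjustment, 1988 genes had p under 0.05, 920 of them with a higher and 1068 with a lower value.

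The balance of higher and lower calls depends on the scaling. TMM factors were below 1 in each RF.Ctrl mouse and above 1 in each RF.SAAR mouse. With library size alone the median of all genes moved to 0.16 on the log2 scale, and 359 genes were called higher and 66 lower (among them 63 of the 130), so that 84.5% of calls were higher where TMM gave 40.4%. All changes below are relative to the bulk of genes under TMM, and list medians nearer to 0 than that shift take their sign from the scaling. The number of calls also rests on each mouse: with 1 RF mouse left out, between 32 and 60 genes were called higher and between 55 and 97 lower. Of 93 named genes called, 49 were called in all 12 fits that left out 1 mouse. A gene given below without such a count is not thereby shown to be stable.

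**Figure D1:**
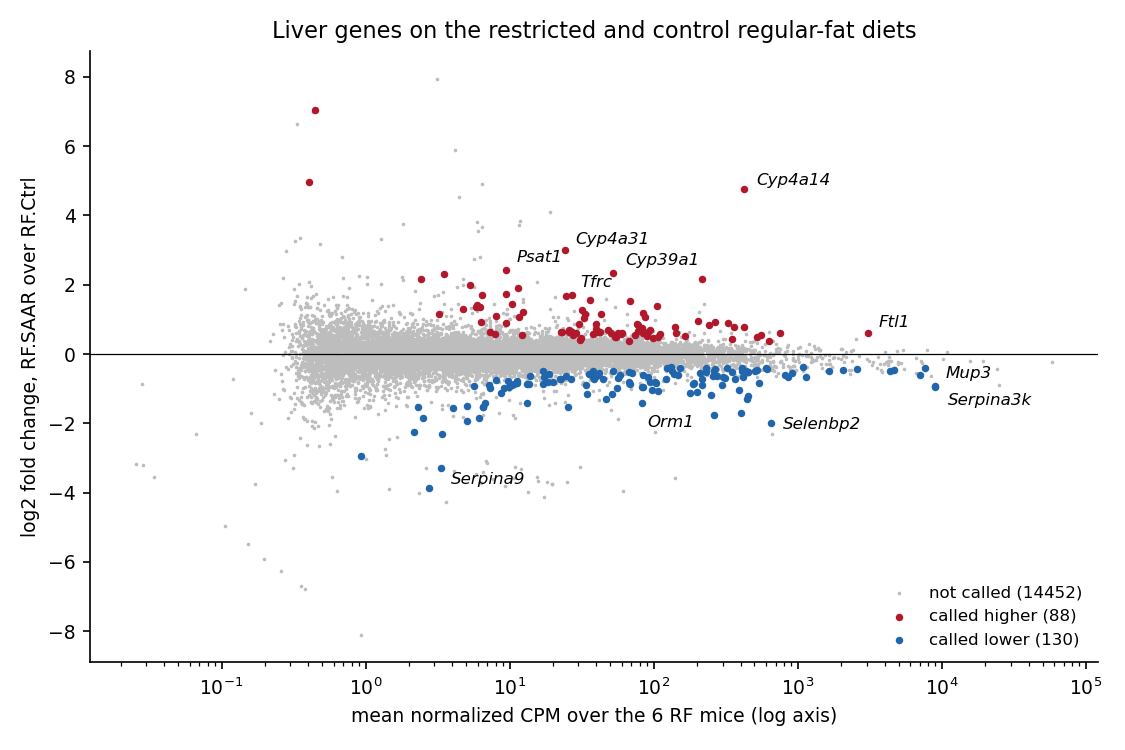
Each point is 1 of the 14670 genes tested, with its mean normalized CPM over the 6 RF mice on a log axis and its log2 fold change, RF.SAAR over RF.Ctrl. The 88 genes called higher (red) spread over low and middle levels, and the 130 called lower (blue) reach the most abundant genes, such as Mup3 and Serpina3k.

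The smallest p of all belonged to Cyp39a1, an oxysterol 7-alpha-hydroxylase that works in a side branch of bile acid synthesis (chr17:43667425-43751431, GRCm38). It measured 18.2, 17.9 and 15.7 CPM in the RF.Ctrl mice and 94.03, 87.0 and 79.3 in the RF.SAAR mice. The groups lay far apart with little spread within either, and the gene rose 5.02-fold (log2 fold change 2.33 ± 0.10 (SE), adjusted p = 5.8e-08). Of 16 bile acid synthesis genes tested, 1 rose and 2 fell (median -0.19). Both that fell serve the later steps. Scp2, a sterol carrier and peroxisomal thiolase, averaged 5086 CPM in control and 3618 CPM in restricted mice (log2 fold change -0.49 ± 0.11, adjusted p = 0.0358). Slc27a5, the bile acid CoA ligase, went from 704 to 525 CPM (-0.42 ± 0.09, adjusted p = 0.0404). Without some single mice neither Scp2 nor Slc27a5 was called, and each was called in 4 of 12 such fits.

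Among 22 bile and organic anion transporters, 0 rose and 2 fell. Slc22a7 takes up organic anions from the blood (chr17:46432183-46438457). Its values were 60.1, 71.7 and 66.8 CPM in control against 29.7, 25.8 and 25.9 CPM in restricted mice, a 2.44-fold fall (-1.29 ± 0.13, adjusted p = 0.00071), the smallest p among the lower genes. Slc17a3, an organic anion exporter, averaged 70.5 and 46.7 CPM (-0.60 ± 0.12, adjusted p = 0.029), and was called in 6 of the 12 fits without a mouse.

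4 neighbouring Cyp4a genes rose, and Cyp4a14 had the largest fold change of any called gene at 5 CPM or more. The Cyp4a enzymes hydroxylate the end of fatty acid chains and are known targets of the fatty acid-activated receptor PPAR-alpha. Of 52 genes of fatty acid oxidation and ketogenesis tested, 6 rose and 0 fell, with a list median of 0.13. Cyp4a14 measured 47.4, 19.1 and 22.5 CPM in control against 513, 1561 and 357 CPM in restricted mice. All restricted mice exceeded all controls, and RF.SAAR mouse 2 stood well above the other two. The fitted rise was 27.3-fold (4.77 ± 0.74, adjusted p = 0.0199). Without RF.SAAR mouse 2 its log2 fold change was 3.87, and the call was lost without RF.Ctrl mouse 1, 2 or 3 (adjusted p up to 0.111). Cyp4a31 was at 7.95, 5.06 and 3.10 CPM in control against 33.6, 47.2 and 48.4 CPM in restricted mice, a rise of 7.99-fold (2.999 ± 0.34, adjusted p = 0.0024), and it was called without any one of the 12 mice.

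Cyp4a10 (78.6 to 353 CPM, 2.17 ± 0.42, adjusted p = 0.0408) and Cyp4a32 (28.4 to 51.6 CPM, 0.86 ± 0.16, adjusted p = 0.0185) also rose. Cyp4a10 was called in 2 of the 12 fits that left out a mouse and Cyp4a32 in 8. All 4 lie side by side at chr4:115486200-115621602, a stretch in which no other gene was tested. They are close paralogs, so the division of reads among them is uncertain. Cyp4v3, another fatty acid hydroxylase of the CYP4 family, outside the list and picked after its values were seen, fell from 482 to 339.9 CPM (-0.50 ± 0.09, adjusted p = 0.0138). Outside the cluster, Ehhadh, the bifunctional enzyme of peroxisomal beta-oxidation, had 196, 190.4 and 167 CPM in control against 243, 427 and 372 CPM in restricted mice (0.91 ± 0.17, adjusted p = 0.0185). Acot2, a mitochondrial acyl-CoA thioesterase, was steady in the controls at 3.26, 3.32 and 3.28 CPM and reached 5.44, 11.03 and 8.68 in the restricted mice (1.35 ± 0.25, adjusted p = 0.0155). Ehhadh and Acot2 were each called in 7 of the 12 fits without a mouse. Crat and Slc22a5 were picked after their values were seen. Crat, carnitine acetyltransferase, rose from 18.3 to 53.8 CPM (1.55 ± 0.24, adjusted p = 0.00787), and Slc22a5, the plasma membrane carnitine transporter, from 21.4 to 44.3 CPM (1.05 ± 0.21, adjusted p = 0.0275).

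Fatty acid and triglyceride synthesis had 0 higher and 3 lower calls of 29 tested (median -0.07), with 13 higher and 16 lower values. Acss2, which makes acetyl-CoA from acetate in the cytosol, measured 149.7, 128 and 175 CPM in control against 96.1, 96.7 and 84.4 CPM in restricted mice (-0.71 ± 0.12, adjusted p = 0.0118). Elovl6, the elongase of palmitate, averaged 88.7 and 48.4 CPM (-0.87 ± 0.19, adjusted p = 0.0404). Acsl5, a long-chain acyl-CoA synthetase, averaged 303 and 225 (-0.43 ± 0.09, adjusted p = 0.0252). Elovl6 and Acsl5 were called in 5 and 6 of the 12 fits without a mouse. In the cholesterol list 1 of 25 fell and 0 rose. That gene was Stard4, an intracellular sterol carrier (130.2 to 74.7 CPM, -0.80 ± 0.17, adjusted p = 0.0326; called in 6 of 12 such fits).

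Carboxylesterases moved in both directions. The list of lipid droplet, lipase and lipoprotein genes had 2 higher and 4 lower calls among 47 tested (median -0.01). Ces3b, a lipase of the endoplasmic reticulum, fell from 619, 694 and 591 CPM in the controls to 273, 296 and 207 in the restricted mice (-1.30 ± 0.16, adjusted p = 0.00173). Its neighbour Ces3a, the more abundant of the pair in counts, averaged 2397 and 1746 CPM (-0.46 ± 0.07, adjusted p = 0.00816). Ces2e and Ces2c fell too, and the 4 lower genes lie at chr8:104847068-105093929, where 8 genes were tested. Ces1b rose from 54.9, 45.3 and 54.2 CPM to 145, 116 and 91.3 CPM (1.19 ± 0.15, adjusted p = 0.002). Hsd17b13, a lipid droplet protein of hepatocytes, rose from 455 to 659 CPM (0.54 ± 0.10, adjusted p = 0.0138).

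Enzymes that conjugate and clear foreign compounds were split by family. Glutathione transferases join glutathione to electrophiles, and 2 of 23 rose while 0 fell (median 0.14). Gsta2 had 18.2, 21.7 and 16.3 CPM in control against 34.0, 57.8 and 43.0 CPM in restricted mice (1.26 ± 0.18, adjusted p = 0.0043). Gstm1, far more abundant, had 531, 665 and 599 CPM in control against 953, 883 and 884 CPM in restricted mice (0.60 ± 0.09, adjusted p = 0.00657). In the list of glutathione synthesis genes and targets of NRF2, the transcription factor of the antioxidant response, 2 of 30 rose and 0 fell (median 0.19). They were Htatip2, a short-chain dehydrogenase-like protein, and Ephx1, microsomal epoxide hydrolase. Htatip2 measured 27.2, 28.4 and 23.8 CPM in control against 56.3, 68.6 and 52.1 CPM in restricted mice (1.15 ± 0.15, adjusted p = 0.002). Ephx1 measured 274, 276 and 246 CPM in control against 412, 471 and 493 CPM in restricted mice (0.79 ± 0.10, adjusted p = 0.0024), and for neither gene did the groups overlap. Gclc, the catalytic subunit of the rate-limiting enzyme of glutathione synthesis, was at 272 and 418 CPM and not called (log2 fold change 0.62, adjusted p = 0.206).

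Glucuronidation showed 2 higher and 2 lower calls of 19. Ugt1a9 rose from 53.1, 73.5 and 46.7 CPM to 184, 124 and 147 CPM (1.39 ± 0.20, adjusted p = 0.0049). The Ugt1a genes share their last exons, so reads from these exons cannot be tied to 1 of them. Ugdh, which supplies the glucuronic acid donor, rose from 138 to 269 CPM (0.96 ± 0.15, adjusted p = 0.0049). Ugt2b1 fell from 687 to 382 CPM (-0.85 ± 0.14, adjusted p = 0.00818), and Ugt2a3 from 313 to 203 (-0.62 ± 0.10, adjusted p = 0.00904). Cytochromes P450 of families 1 to 3, the main drug-oxidizing enzymes, had 0 higher and 8 lower calls of 41 (median -0.30). Cyp2d40 measured 80.9, 72.7 and 58.5 CPM in control against 30.4, 34.0 and 31.5 CPM in restricted mice (-1.15 ± 0.14, adjusted p = 0.00173). Cyp2d9 (1386 to 883 CPM, -0.65), Cyp2c23 (372 to 236 CPM, -0.66) and Cyp2f2 (1077 to 736 CPM, -0.55) fell by less on the log2 scale. These 3 were called in 11, 9 and 8 of the 12 fits without a mouse. Of the sulfotransferase list, 0 of 13 were called, and the smallest p belonged to Sult2a8 (1040.0 and 820.3 CPM, -0.34, adjusted p = 0.107) and Sult2a7 (2.28 and 0.966 CPM, -1.23, adjusted p = 0.114).

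Genes of secreted plasma proteins were among those that fell, in several families. Complement proteins attack microbes and, at the end of the cascade, form a pore in the membrane. Of 30 complement genes tested, 5 fell and 0 rose, and 28 had lower values (median -0.25). Their share of all counts, without TMM, was 1.25 to 1.425% in RF.Ctrl and 1.11 to 1.32% in RF.SAAR, ranges that overlap. C9, the pore-forming component, was 580.0, 483 and 513 CPM in control against 222, 248 and 299.8 CPM in restricted mice, a 2.05-fold fall (-1.03 ± 0.11, adjusted p = 0.00119). C6, also of the pore, was 310.1, 249 and 261 CPM in control against 108, 122 and 156 CPM in restricted mice (-1.09 ± 0.14, adjusted p = 0.002). C8b, another pore component, averaged 459.9 and 278 CPM (-0.73 ± 0.13, adjusted p = 0.0137).

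Coagulation and fibrinolysis genes gave 3 lower and 0 higher calls of 29, and 25 had lower values (median -0.17). They held 3.20 to 3.665% of all counts in RF.Ctrl and 3.26 to 3.70% in RF.SAAR, which overlap. Under the same scaling the general hepatocyte markers, which include plasma proteins such as Alb, had 10 lower values of 12. Their median was -0.19 and 0 were called, so the coagulation median was no lower than theirs. Over all genes tested, 7304 values were higher and 7366 lower. F11, a protease of the contact pathway, measured 99.7, 123.2 and 169 CPM in control against 69.2, 59.5 and 60.8 CPM in restricted mice (-1.05 ± 0.16, adjusted p = 0.00543). Cpb2, which slows clot lysis, averaged 269.6 and 188 CPM (-0.52 ± 0.09, adjusted p = 0.0138), and F13b, a subunit of the clot-stabilizing factor, 262 and 197 CPM (-0.41 ± 0.09, adjusted p = 0.0343). F13b was called in 4 of the 12 fits that left out a mouse. The fibrinogen chain Fga was not called (4675 and 3750.0 CPM, -0.32, adjusted p = 0.0651).

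The Serpina genes code for protease inhibitors and related proteins of plasma, and 6 of 17 fell while 0 rose (median -0.38). All 6 lie within chr12:103763594-104346144, where 13 genes were tested. Serpina3k measured 14579, 10195 and 10613 CPM in control against 5790.4, 6119.7 and 6738 CPM in restricted mice (-0.92 ± 0.14, adjusted p = 0.00485). Its share of all counts went from a mean of 1.12% to 0.665%. Serpina1c, an alpha-1-antitrypsin gene, was 9289, 8755 and 7423 CPM in control against 5701, 5478 and 5568 CPM in restricted mice (-0.60 ± 0.10, adjusted p = 0.00768). Serpina9 had a low level and fell from 6.47, 5.58 and 6.02 CPM to 0.586, 0.530 and 0.719 CPM (-3.28 ± 0.47, adjusted p = 0.00447). Serpina12, the adipokine vaspin, fell from 110.0 to 56.8 CPM (-0.95 ± 0.17, adjusted p = 0.0124). Reads of the Serpina1 and Serpina3 paralogs can be exchanged between copies.

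Among acute-phase proteins, 6 of 27 fell and 1 rose (median -0.10). Orm1, an orosomucoid that carries drugs in plasma, measured 446, 476 and 282 CPM in control against 92.4, 109.7 and 154 CPM in restricted mice (-1.76 ± 0.26, adjusted p = 0.00781). Orm2 (at a low level) fell with it (8.09 to 2.09 CPM, -1.95 ± 0.38, adjusted p = 0.0251), and the 3 Orm genes and Col27a1 are the 4 genes tested at chr4:63214004-63365878. Orm2 was called in 7 of the 12 fits without a mouse. Saa4, the constitutive serum amyloid A, fell from 271 to 163 CPM (-0.73 ± 0.11, adjusted p = 0.0049), and Steap4, a metalloreductase, from 144 to 69.1 CPM (-1.06 ± 0.17, adjusted p = 0.00818). The member that rose was Apcs, serum amyloid P (55.5 to 98.8 CPM, 0.83 ± 0.18, adjusted p = 0.0429). Major urinary proteins carry pheromones and are abundant in the male liver. Together they held 10.1 to 13.5% of all counts in the RF.Ctrl mice and 7.66 to 9.95% in the RF.SAAR mice, which did not overlap. Of 21 tested, 2 fell and 0 rose (median -0.46). They were Mup3, at 13835, 11447 and 10158 CPM in control against 5538, 5993 and 6936 CPM in restricted mice (-0.94 ± 0.17, adjusted p = 0.0141), and Mup21, at 878, 479 and 498 CPM in control against 144, 161 and 263 CPM in restricted mice (-1.71 ± 0.29, adjusted p = 0.0177). Mup3 was called in 9 and Mup21 in 10 of the 12 fits without a mouse. The family is nearly identical in sequence, so values of single members are uncertain.

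**Figure D2:**
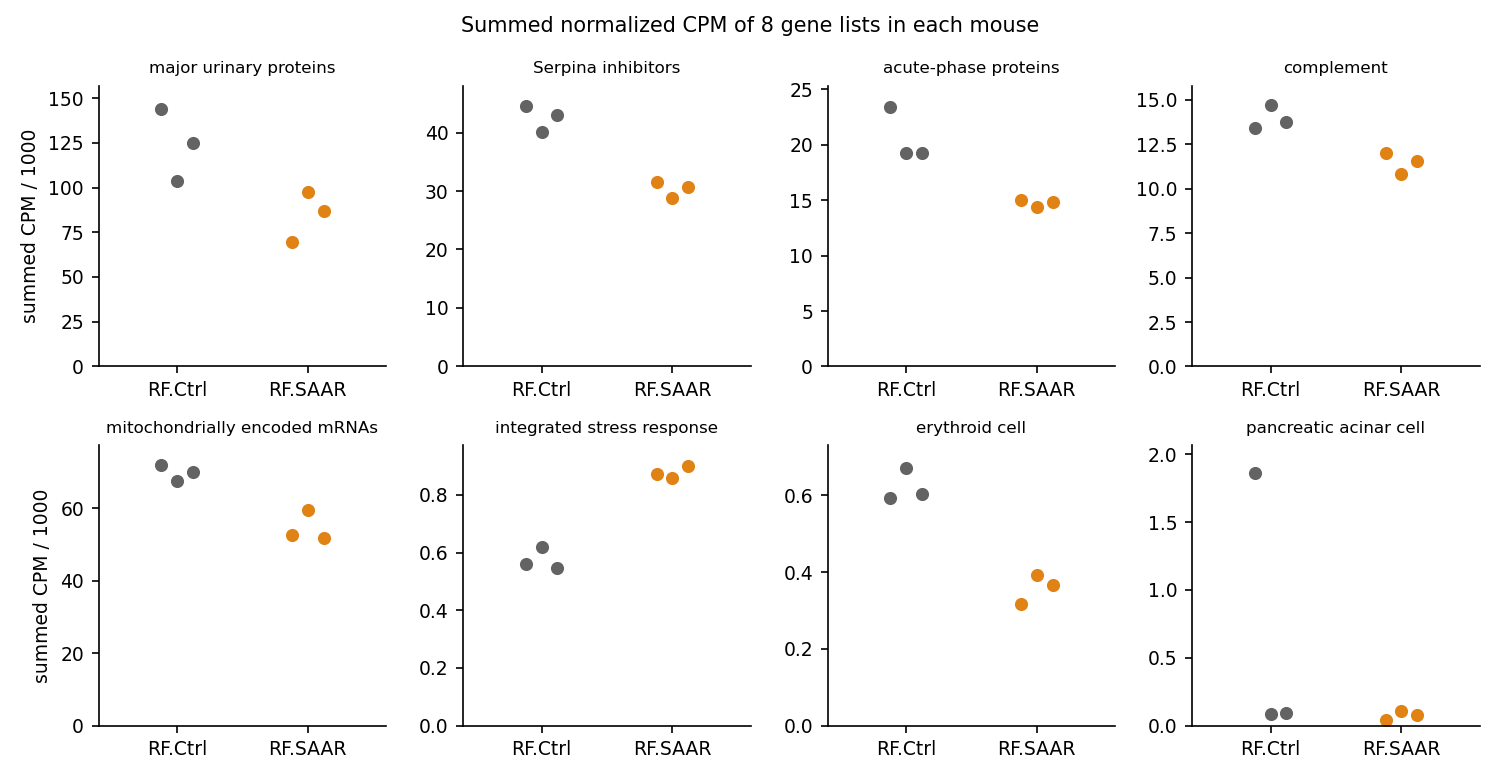
Points are the summed normalized CPM (divided by 1000, axes from 0) of the genes of 8 lists in each of the 3 RF.Ctrl (grey) and 3 RF.SAAR (orange) mice. After TMM scaling the 4 lists of secreted proteins and the mitochondrial mRNAs lie lower in all restricted mice. The integrated stress response genes lie higher and the erythroid markers lower. The pancreatic acinar markers are high in RF.Ctrl mouse 1, at 1859 CPM.

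Many genes with higher expression in male than in female mouse liver fell. Of 27 male-biased genes tested, 11 fell and 0 rose, 25 had lower values and the median log2 fold change was -0.73. The list shares members with those of the complement, P450, urinary protein and steroid genes, so its calls are not additional to theirs. Selenbp2, a selenium-binding protein, measured 1069, 825 and 1198 CPM in control against 326, 247 and 213 CPM in restricted mice, a 3.93-fold fall (-1.98 ± 0.27, adjusted p = 0.00498). Hsd3b2, a 3-beta-hydroxysteroid dehydrogenase, had 47.6, 45.9 and 48.6 CPM in control against 23.3, 20.4 and 19.8 CPM in restricted mice (-1.16 ± 0.13, adjusted p = 0.00146). The groups were well separated in both genes.

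The list of Hsd3b, Hsd11b and Hsd17b steroid dehydrogenases had 4 lower and 1 higher call of 14. Besides Hsd3b2, Hsd3b3 (245 to 136 CPM, -0.85 ± 0.12, adjusted p = 0.00478) and Hsd3b5 (344 to 153 CPM, -1.17 ± 0.23, adjusted p = 0.0269) fell. These 3 are the 3 genes tested at chr3:98618634-98763127. Hsd3b5 was called in 8 of the 12 fits without a mouse. Ghr, the growth hormone receptor (chr15:3317760-3583492), had 509, 481 and 549.7 CPM in control against 354, 296 and 323 CPM in restricted mice, a 1.58-fold fall (-0.66 ± 0.10, adjusted p = 0.00482). It was the 1 call among 23 genes of the growth hormone, STAT5 and IGF axis (list median -0.07). Igf1, the hormone made in response to it, was at 402 and 316 CPM and not called (-0.35, adjusted p = 0.158). Female-biased genes gave 1 higher and 1 lower call of 17 (median 0.40). Cyp17a1, a steroid hydroxylase, rose from 6.29, 4.35 and 3.77 CPM to 17.3, 24.7 and 12.3 CPM (1.91 ± 0.39, adjusted p = 0.0408), although it was called in 3 of the 12 fits that left out a mouse. RF.SAAR mouse 3, the library with adrenal transcripts, was at 12.3 CPM, and the part of adrenal RNA in these values was not tested. Adh4, an alcohol dehydrogenase, fell from 119.9 to 68.7 CPM (-0.80 ± 0.14, adjusted p = 0.0112).

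**Figure D3:**
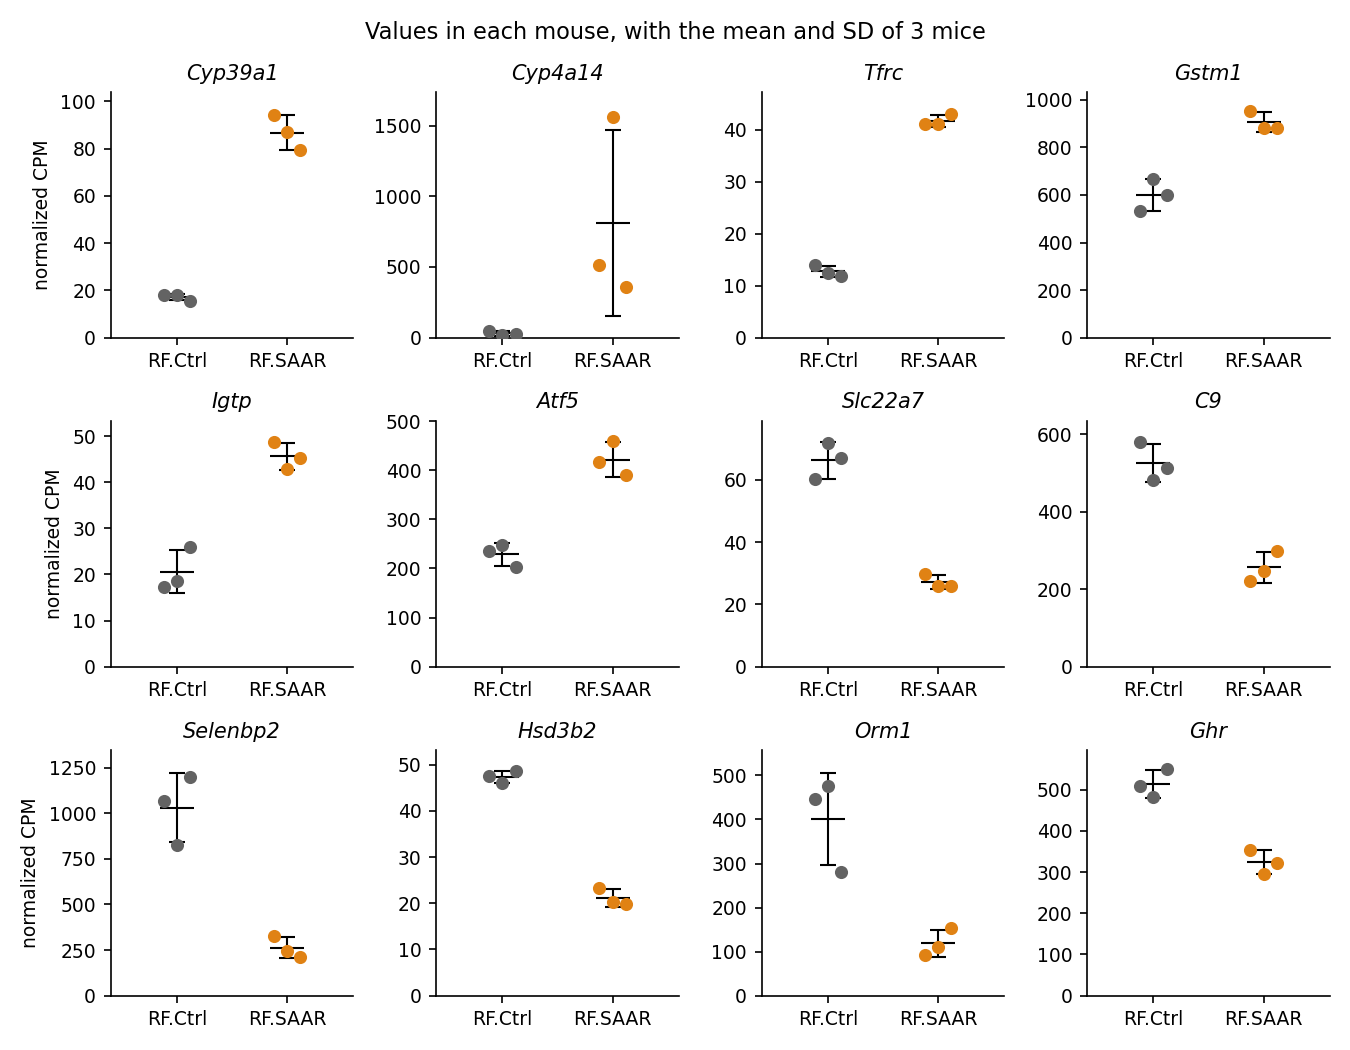
Normalized CPM of 12 genes in each RF mouse (points), with the mean (bar) and SD (whiskers) of the 3 RF.Ctrl (grey) and 3 RF.SAAR (orange) mice, on linear axes from 0. In every panel the groups do not overlap, and Cyp4a14 has the widest spread, from 357 to 1561 CPM among the restricted mice.

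Iron genes included the second smallest p. Tfrc, the receptor that takes up transferrin-bound iron (chr16:32608920-32632794), measured 13.9, 12.5 and 11.9 CPM in control against 41.0, 41.0 and 43.0 CPM in restricted mice. The spread within each group was small beside the 3.27-fold rise (1.71 ± 0.12, adjusted p = 9.71e-06). Ftl1, the light chain of the iron store ferritin, rose from 2722, 2537 and 2082 CPM to 3315, 4131 and 3699 CPM (0.60 ± 0.13, adjusted p = 0.0428) and was called in 2 of the 12 fits without a mouse. They were the 2 calls of 27 iron genes tested, and 0 fell (median 0.07). Alas2 makes the first intermediate of heme in red blood cell precursors. It fell from 113, 111 and 105 CPM to 47.5, 62.6 and 62.0 CPM (-0.94 ± 0.13, adjusted p = 0.00303).

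Alas2 is 1 of the erythroid markers, and the other 4 tested had lower values too without being called, Hba-a2 at 146 and 85.7 CPM (-0.77, adjusted p = 0.182) and Hbb-bs at 213 and 126 CPM (-0.76, adjusted p = 0.213) being the most abundant. Erythroid markers summed to 594, 672 and 603 in the RF.Ctrl mice and 318, 393 and 366 in the RF.SAAR mice. The part of blood or red cell precursors in the value of Alas2 was not tested. In bulk tissue, fewer cells of a type and less RNA per cell cannot be told apart. Markers of the other cell types were called in few cases. For Kupffer cells, sinusoidal endothelial cells, cholangiocytes and leukocytes, 0 of 15, 13, 6 and 15 markers were called, with Clec4f at 118 and 122 CPM and Dpp4 at 114 and 106 CPM. Of stellate cell markers 1 of 14 fell, namely Lrat, which esterifies retinol (22.0 to 12.1 CPM, -0.86, adjusted p = 0.0408), while Dcn was at 131 and 124 CPM. Pericentral hepatocyte markers gave 0 calls of 17, and periportal ones 1 higher (Hsd17b13) and 1 lower (Cyp2f2) of 15.

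A part of the interferon-stimulated genes rose. These genes restrict viruses and intracellular microbes and respond to interferons through STAT and IRF factors. Of 31 tested, 6 rose and 0 fell, 27 had higher values and the median was 0.53. Igtp, a GTPase of immunity to intracellular pathogens, measured 17.3, 18.6 and 25.9 CPM in control against 48.6, 42.8 and 45.2 CPM in restricted mice (1.15 ± 0.14, adjusted p = 0.00173). Usp18, which removes the ubiquitin-like protein ISG15, measured 9.16, 10.1 and 15.7 CPM in control against 41.1, 28.1 and 43.5 CPM in restricted mice (1.69 ± 0.22, adjusted p = 0.0028). In both genes RF.Ctrl mouse 3 was the highest control and lay below every restricted mouse. Irf7, a transcription factor of the pathway, rose from 21.5 to 38.9 CPM (0.86 ± 0.18, adjusted p = 0.029), and Gbp3, a guanylate-binding protein, from 6.59 to 12.3 CPM (0.90 ± 0.19, adjusted p = 0.0306). Irf7 and Gbp3 were each called in 6 of the 12 fits without a mouse. Apol9a, an apolipoprotein L outside the list, rose from 27.1, 31.5 and 46.2 CPM to 102, 80.4 and 122 CPM (1.54 ± 0.21, adjusted p = 0.00409). Leukocyte markers summed to 22.0, 27.7 and 22.4 in the RF.Ctrl mice and 33.5, 21.0 and 24.1 in the RF.SAAR mice, ranges that overlap.

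Start-site sequences of some of these genes hold a pair of GAAA copies with 2 bases of any kind between them, the core of the interferon-stimulated response element that IRF and STAT complexes bind. The 250 bases before the RefSeq start site are shown for 4 of them, since they were called higher and hold the motif, which is written in capitals on whichever strand it was found (overlapping matches run together). The sequences are from RefSeq on GRCm38.p6, 5′ to 3′ on the gene's own strand.

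Igtp, chr11:58199306-58199555, plus strand: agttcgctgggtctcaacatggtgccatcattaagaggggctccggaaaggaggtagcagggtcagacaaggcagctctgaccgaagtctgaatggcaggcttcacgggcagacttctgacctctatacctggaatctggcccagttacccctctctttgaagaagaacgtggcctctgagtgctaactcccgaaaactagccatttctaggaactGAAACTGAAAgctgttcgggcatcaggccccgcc

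Gbp3, chr3:142559794-142560043, plus strand: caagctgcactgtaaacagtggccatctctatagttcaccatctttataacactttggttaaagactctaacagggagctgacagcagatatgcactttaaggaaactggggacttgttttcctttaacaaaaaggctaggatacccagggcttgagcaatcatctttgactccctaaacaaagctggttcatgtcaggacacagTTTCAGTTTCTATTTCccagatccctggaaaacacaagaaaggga

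Rsad2, chr12:26456453-26456702, minus strand: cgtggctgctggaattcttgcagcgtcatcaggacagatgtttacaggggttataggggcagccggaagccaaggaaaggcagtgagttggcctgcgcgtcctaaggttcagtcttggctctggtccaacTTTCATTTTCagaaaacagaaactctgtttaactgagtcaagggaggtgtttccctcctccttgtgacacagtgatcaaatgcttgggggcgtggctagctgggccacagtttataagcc

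Apol9a, chr15:77411081-77411330, minus strand: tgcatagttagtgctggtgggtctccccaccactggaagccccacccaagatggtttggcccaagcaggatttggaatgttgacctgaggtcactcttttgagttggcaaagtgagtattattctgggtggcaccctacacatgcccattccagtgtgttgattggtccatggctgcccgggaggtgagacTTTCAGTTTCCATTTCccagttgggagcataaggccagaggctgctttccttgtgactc

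The RefSeq start lies at the annotated gene start in Igtp and Rsad2, 18 bases from it in Gbp3 and 55 in Apol9a. The motif begins 34 bases before the start site in Igtp and 120 in Rsad2, and the paired matches begin 45 and 39 bases before it in Gbp3 and 59 and 53 in Apol9a. Rsad2, an antiviral enzyme, rose from 7.47 to 17.4 CPM (1.22 ± 0.26, adjusted p = 0.0364). The GAAA pair on either strand was in 7 (9.86%) of the 71 promoters of called higher genes. It was in 3 (3.12%) of the 96 of called lower genes and in 320 (2.86%) of all 11198 promoters matched. The 7 include Apol9a and its paralog Apol9b, whose windows are shifted copies of nearly the same sequence and are not separate cases. They also include Cyp4a32, a fatty acid hydroxylase. This motif was added after the values were seen. For 76.3% of the genes tested a promoter was matched by symbol, taking the start site nearest to the annotated gene start. The other motifs were also counted on both strands, with N for any base. TGATGNAA, bound by ATF4 with C/EBP factors, was in 5.63%, 2.08% and 2.19% of the same groups. TGACNNNGC, the core of NRF2 sites, was in 15.5%, 12.5% and 11.5%. TTCNNNGAA, the STAT5 core, was in 7.04%, 5.21% and 6.1%, and the E-box CACGTG in 8.45%, 6.25% and 7.88%. Each share counts promoters with at least 1 match in the 250-base window, and these are descriptions without a test.

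2 further promoters are printed because their genes were called and belong to the amino acid response and to glucuronidation, with the TGATGNAA match of Pck2 and both TGACNNNGC matches of Ugdh in capitals. The RefSeq start lies at the annotated start in Pck2 and 107 bases from it in Ugdh.

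Pck2, chr14:55540016-55540265, plus strand: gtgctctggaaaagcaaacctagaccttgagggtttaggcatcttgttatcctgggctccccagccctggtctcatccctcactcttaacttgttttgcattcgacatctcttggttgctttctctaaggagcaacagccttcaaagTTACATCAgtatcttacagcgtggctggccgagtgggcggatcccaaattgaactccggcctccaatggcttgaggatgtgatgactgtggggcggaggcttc

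Ugdh, chr5:65435843-65436092, minus strand: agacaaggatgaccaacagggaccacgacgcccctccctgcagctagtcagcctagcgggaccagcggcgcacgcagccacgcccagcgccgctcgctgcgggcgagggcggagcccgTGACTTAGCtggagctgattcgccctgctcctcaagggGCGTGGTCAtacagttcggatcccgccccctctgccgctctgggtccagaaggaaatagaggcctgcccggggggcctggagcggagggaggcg

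Genes of the amino acid response rose in part. The integrated stress response acts through ATF4, which raises genes of amino acid synthesis and transport. Of the 19 genes tested from the study's list, which it drew from published lists, 3 rose and 0 fell (median 0.31), and the summed level was 562, 618 and 548 in the RF.Ctrl mice and 872, 857 and 899.7 in the RF.SAAR mice. Atf5, a leucine zipper factor, measured 236, 248 and 202 CPM in control against 416, 459 and 389.9 CPM in restricted mice (0.88 ± 0.13, adjusted p = 0.00508). Psat1, an enzyme of serine synthesis, measured 3.09, 1.23 and 4.62 CPM in control against 18.3, 10.9 and 18.2 CPM in restricted mice (2.42 ± 0.41, adjusted p = 0.0158). Gadd45b, a stress-induced regulator of growth arrest and the 1 call among 24 cell cycle and p53 genes, went from 1.17 to 5.80 CPM (2.30 ± 0.42, adjusted p = 0.0161). Serine and folate enzymes gave 2 higher and 0 lower calls of 21, Psat1 and Aldh1l2, the mitochondrial enzyme that oxidizes formyl-folate (0.871 to 3.98 CPM, 2.18 ± 0.39, adjusted p = 0.0138). Psat1 and Aldh1l2 were each called in 9 and Gadd45b in 7 of the 12 fits without a mouse.

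Of the 26 methionine cycle and transsulfuration genes, 0 were called (median -0.02), although 1988 genes in all had unadjusted p under 0.05. The smallest p in that list belonged to Csad, an enzyme of taurine synthesis, at 149, 71.8 and 139 CPM in control against 341, 356 and 274 CPM in restricted mice (1.43 ± 0.31, adjusted p = 0.0532), and to Mat2a, which makes S-adenosylmethionine, at 48.6 and 62.9 CPM (0.37, adjusted p = 0.0896). Csad did not overlap between the groups and was called in 6 of 9 alternative analyses and in 1 of 12 that left out a mouse. Amino acid transporters gave 1 lower and 0 higher calls of 29: Slc43a1, a carrier of large neutral amino acids, fell from 7.27, 11 and 10.3 CPM to 1.97, 3.76 and 2.21 CPM (-1.84 ± 0.24, adjusted p = 0.00206). Amino acid catabolism and the urea cycle gave 3 lower and 0 higher calls of 50 (median -0.14). These were Hao1, the glycolate oxidase (334 to 217 CPM, -0.62), Kmo of tryptophan breakdown (304 to 216 CPM, -0.49) and Otc of the urea cycle (467 to 350.1 CPM, -0.41), with adjusted p of 0.0185, 0.0243 and 0.035, and they were called in 7, 7 and 4 of the 12 fits without a mouse.

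Few genes of the machinery of protein synthesis were called. Of 84 cytosolic ribosomal protein genes 0 were called (median 0.06), with the smallest p in Rpl12 (11.9 and 15.7 CPM, 0.40, adjusted p = 0.168). Values were higher in 65 and lower in 19. Together they held 1.42 to 1.52% of all counts in RF.Ctrl and 1.66 to 1.895% in RF.SAAR, while their summed normalized CPM overlapped. Translation factors gave 1 higher call of 59, Eif5, which triggers GTP hydrolysis at the start codon (299 to 399.8 CPM, 0.42 ± 0.10, adjusted p = 0.0455), and it was called in 1 of the 12 fits without a mouse. Of these factors 43 had higher and 16 lower values, and they held 0.98 to 1.04% of all counts in RF.Ctrl and 1.20 to 1.29% in RF.SAAR. Aminoacyl-tRNA synthetases gave 0 of 20, with Sars at 64.2, 67.5 and 64.6 CPM in control against 87.4, 89.4 and 90.9 CPM in restricted mice (0.45, adjusted p = 0.123). Proteasome subunits and mitochondrial ribosomal proteins gave 0 of 38 and 0 of 78. Chaperones of the endoplasmic reticulum gave 1 lower and 0 higher calls of 29 (median -0.33). The call was Pdia6, a protein disulfide isomerase, with 371, 425 and 361 CPM in control against 235, 218 and 268 CPM in restricted mice (-0.68 ± 0.10, adjusted p = 0.0049).

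The mRNAs encoded in mitochondrial DNA had lower values throughout. All 13 had lower values, 2 were called lower (median -0.41), and they held 6.55 to 6.72% of all counts in RF.Ctrl and 5.61 to 6.08% in RF.SAAR. mt-Nd4, a subunit of complex I, measured 5420.4, 5055 and 5602 CPM in control against 3889.8, 4036 and 3739.6 CPM in restricted mice (-0.46 ± 0.08, adjusted p = 0.00881), and mt-Cytb of complex III 9033, 8166 and 8744 CPM in control against 6219, 7289 and 6039.9 CPM in restricted mice (-0.41 ± 0.09, adjusted p = 0.044). mt-Cytb was called in 3 of the 12 fits without a mouse and in 6 of 9 other alternatives. Of the 79 respiratory chain subunits encoded in the nucleus, 0 were called and the median was -0.10.

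Glucose metabolism gave 1 higher and 2 lower calls of 39. Pck2, the mitochondrial phosphoenolpyruvate carboxykinase, rose from 3.15, 3.58 and 3.71 CPM to 5.70, 9.23 and 11.9 CPM (1.36 ± 0.24, adjusted p = 0.0138), while its cytosolic counterpart Pck1 was at 2329 and 2506 CPM (0.11, adjusted p = 0.923). Pdk1, a kinase that inactivates pyruvate dehydrogenase (69.3 to 42.8 CPM, -0.69, adjusted p = 0.0359), and Pygl, liver glycogen phosphorylase (507 to 362 CPM, -0.49, adjusted p = 0.0497), fell. Pygl stood at the threshold and was called in 3 of 9 alternative analyses and in 1 of 12 fits without a mouse. Pck2 was called in 8 and Pdk1 in 7 of the 12 fits without a mouse. Pdk1 was called in 6 of the 9 alternative analyses. In insulin and FGF signalling the 1 call of 30 was Fgfr3, an FGF receptor, which fell from 33.1 to 20.2 CPM (-0.71 ± 0.15, adjusted p = 0.0359) and was called in 6 of the 12 fits without a mouse. Nuclear receptors and clock genes gave 0 calls of 33 and 21. The smallest p among clock genes were those of Bhlhe41 (7.44 and 2.11 CPM, -1.81, adjusted p = 0.0534) and Per2 (14.3 and 5.64 CPM, -1.34, adjusted p = 0.0652). Among receptors they were those of Nr2f6 (54.4 and 70.5 CPM, adjusted p = 0.192) and Nr1i3 (137 and 214 CPM, adjusted p = 0.195).

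**Figure D4:**
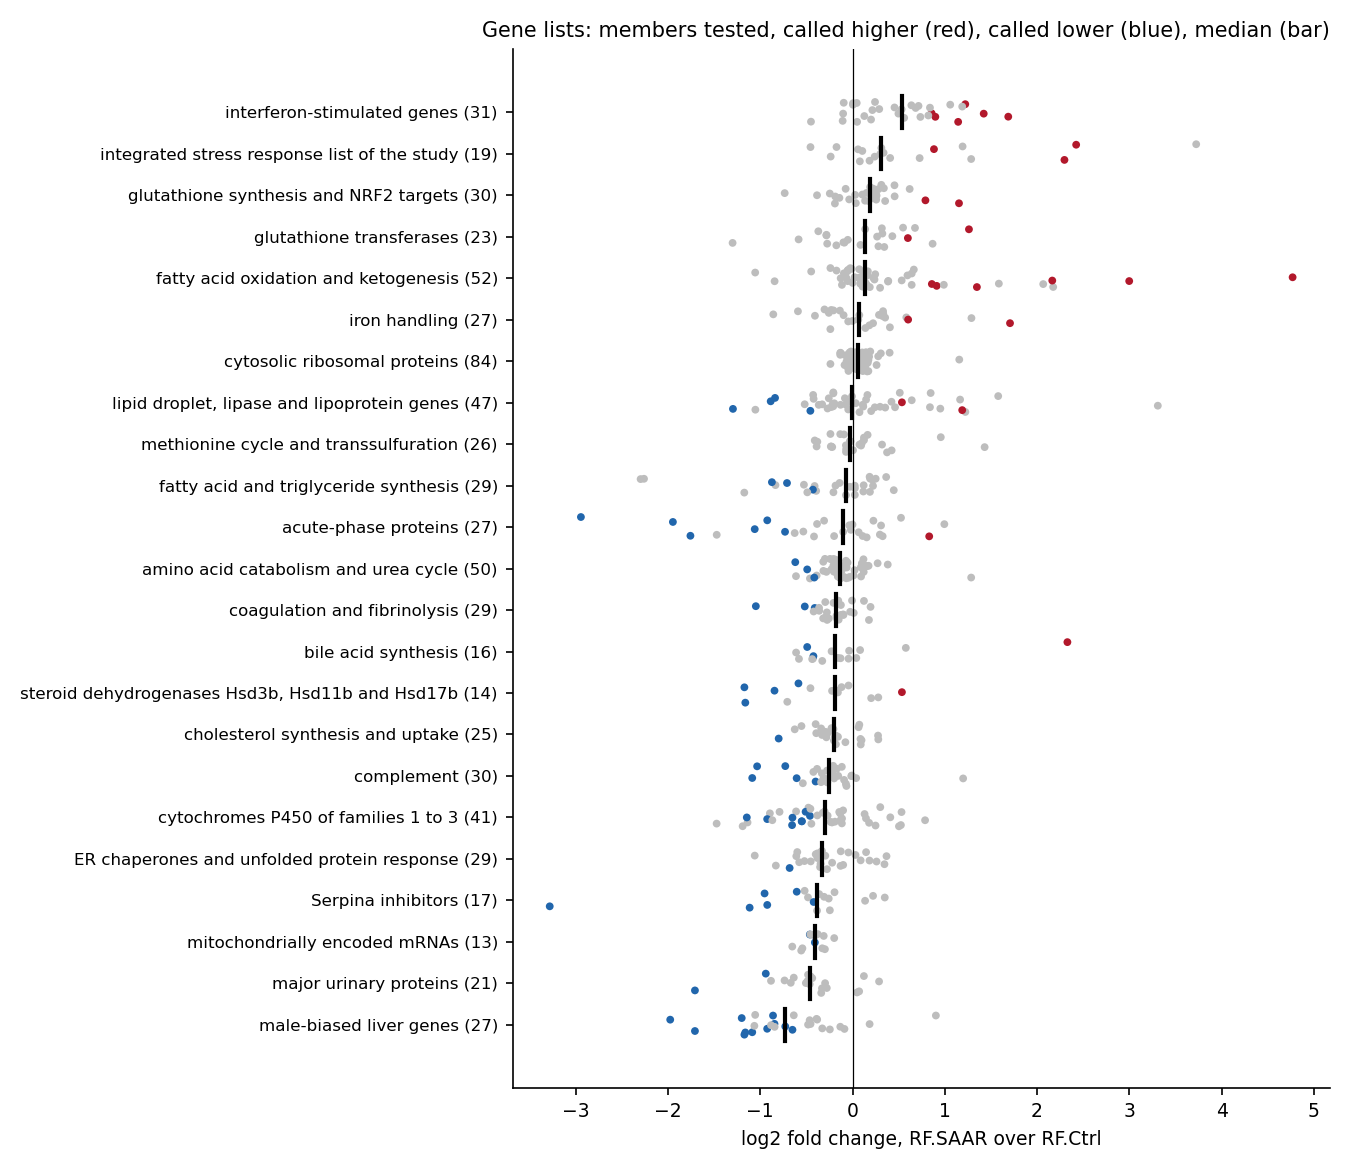
Each point is 1 tested member of a gene list (number tested in parentheses), placed by its log2 fold change, RF.SAAR over RF.Ctrl; red members were called higher, blue ones lower, grey ones not called, and the bar is the list median. Of the lists drawn, the interferon-stimulated genes have the highest median, 0.53, and the male-biased genes the lowest, -0.73.

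Several of the changes with a small p belonged to none of the lists. Hectd2, a ubiquitin ligase, fell from 99.97, 129.7 and 129.8 CPM to 37.4, 41.7 and 56.5 CPM (-1.41 ± 0.17, adjusted p = 0.00173). Col27a1, a fibrillar collagen, fell from 38.7, 30.6 and 43.2 CPM to 15.5, 10.9 and 12.9 CPM (-1.52 ± 0.16, adjusted p = 0.00102). Carmil1, a regulator of actin capping, fell from 20.1, 18.4 and 19.4 CPM to 5.597, 7.58 and 8.47 CPM (-1.42 ± 0.17, adjusted p = 0.00173). All 3 were called in each of the 12 fits without a mouse, and Carmil1 in 8 of 9 other alternatives. Rgn, the gluconolactonase of vitamin C synthesis, was abundant and fell modestly, from 1049 to 663 CPM (-0.66 ± 0.09, adjusted p = 0.00287). Ttc39c (384 to 207 CPM, -0.89), Spry4, an inhibitor of growth factor signalling (9.82 to 3.70 CPM, -1.41), Slc2a5, the fructose transporter (9.77 to 3.37 CPM, -1.53), and Dct, dopachrome tautomerase (9.76 to 3.35 CPM, -1.54), fell as well. Dct was called in 8 of the 12 fits without a mouse and in 7 of 9 other alternatives.

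Among the genes that rose, Tuba8, an alpha-tubulin, went from 1.602, 2.46 and 2.31 CPM to 5.54, 9.12 and 10.8 CPM (1.99 ± 0.25, adjusted p = 0.002). Phospho1, a phosphatase of phosphocholine and phosphoethanolamine, went from 5.21, 3.53 and 4.50 CPM to 9.59, 20.4 and 13.7 CPM (1.72 ± 0.25, adjusted p = 0.00475). Grpel2, a cochaperone of mitochondrial protein import, rose from 54.2 to 99.0 CPM (0.87 ± 0.12, adjusted p = 0.00446), Creg1, a lysosomal glycoprotein, from 309 to 535 CPM (0.79 ± 0.12, adjusted p = 0.00475), and Tgoln1, of the trans-Golgi network, from 174 to 311 CPM (0.84 ± 0.12, adjusted p = 0.00482). The largest fitted values of all rest on almost no counts. Ddx4 and Gm14494 had 1 and 0 counts over the RF.Ctrl mice and 45 and 50.1 over the RF.SAAR mice, and no fold is given for them.

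Restriction in the HF mice moved most of these genes the same way. It was not equal in degree, as the paper reports a lower intake of protein and sulfur amino acids by weight in HF.SAAR than in RF.SAAR mice. Of the 88 genes that rose on regular fat, 85 had a higher value in HF.SAAR than in HF.Ctrl and 45 were called higher there (median log2 fold change 0.66 in the HF mice). Of the 130 that fell, 128 had a lower value and 70 were called lower (median -0.55). Over all genes tested the signs were the same in 66.2%. The HF comparison called 148 genes (1.01%) higher and 141 (0.961%) lower, so the shared higher calls were 51.1% of the RF and 30.4% of the HF higher calls, and the shared lower calls 53.8% and 49.6%. The 115 genes called in both had the same sign in each case. In a fit of each pair of groups alone the number was 66. The HF mice were uneven in genes of other tissues. Their pancreatic acinar markers summed to 2124, 7784 and 85.2 CPM in HF.Ctrl and to 76.7, 4538 and 20431 CPM in HF.SAAR, and HF.SAAR mouse 3 also had adrenal transcripts (Star at 17.8 CPM, 1.84 to 2.89 in the other HF mice). Without HF.SAAR mouse 3, 76 genes were called in both with the same sign, and without the acinar genes 116. The part of these transcripts in the comparison was not tested further.

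A gene called on regular fat alone is not thereby shown to respond differently on high fat. The test of the difference, the interaction of diet and fat, passed the threshold in 1 of 14670 genes (0.00682%), Cyp39a1, whose rise was larger in the HF mice (log2 fold change 3.55 against 2.33, adjusted p = 0.0106), and 462 genes had unadjusted p under 0.05. DESeq2 called 16 genes in the same test. Of the 103 genes called on regular fat and not on high fat, 29 had an unadjusted interaction p under 0.05 and 0 passed after adjustment. Ehhadh was among them, with 0.91 in the RF and 0.05 in the HF mice (interaction, edgeR adjusted p = 0.999), as was Phospho1 (1.72 and -0.02, adjusted p = 0.422). Cyp26b1, which degrades retinoic acid and was chosen after its values were seen, had opposite signs (-0.89 and 0.74, interaction, edgeR adjusted p = 0.29). In the other direction, Gstm1 (0.60 and 1.31), Ugt1a9 (1.39 and 2.84) and Psat1 (2.42 and 4.32) had larger values in the HF mice, with interaction adjusted p of 0.319, 0.422 and 0.999.

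The gene groups can be set side by side in the same way. Interferon-stimulated genes had a median of 0.53 and 6 higher calls in the RF mice, and 0.21 and 2 in the HF mice. The fatty acid oxidation list had 0.13 with 6 higher and 0 lower calls in the RF mice. In the HF mice it had 0.03 with 2 higher and 2 lower calls. The integrated stress response list had 0.31 with 3 calls and 0.97 with 6, and glutathione transferases 0.14 with 2 and 0.55 with 7. Male-biased genes had -0.73 with 11 lower calls and -1.25 with 16. Whether these lists differed between the fat levels was not tested.

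**Figure D5:**
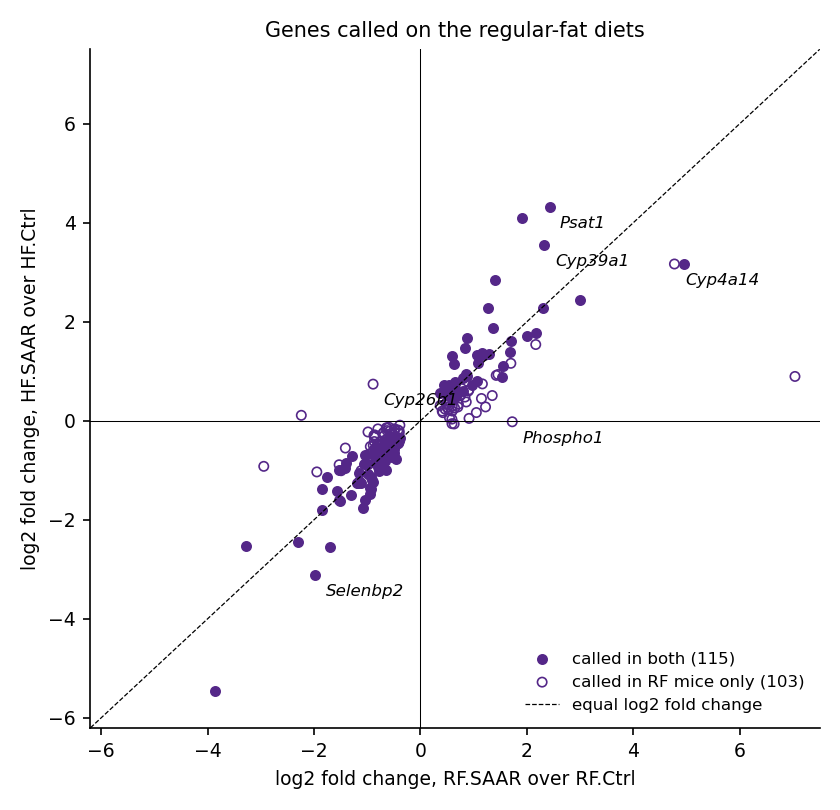
The log2 fold change of the 218 genes called on regular fat (x axis) is plotted against that in the independent HF mice (y axis), filled where also called in the HF mice (115) and open where not (103); the dashed line marks equal changes. Nearly all points lie in the quadrants of the same sign, and Phospho1 and Cyp26b1 are among the 5 that do not.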

How the data were processed

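Liver RNA of 12 male mice was sequenced after 7 days on the diets, 3 per group. The deposited files hold, per transcript, the authors' estimated counts from kallisto on the Ensembl mouse transcriptome, TPM values and, as a further unit, effective lengths in bases. The authors checked reads with FastQC and trimmed them with cutadapt, per the labels, and none of the deposited values is normalized between mice. Estimated counts were summed per gene by transcript identifier against GENCODE M21 (GRCm38), where 116816 of 118489 transcripts were matched, in 36047 genes, and rounded. The deposited TPM values were not used in a test. Deposited effective lengths entered 1 alternative. kallisto shares reads among near-identical copies, the assignment error is not given, and the library kit is not stated to keep the strand, so paralogs and overlapping genes are uncertain. In the labels the tags of the diet and fat fields appear exchanged, and groups follow their values.

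The fit used edgeR 4.0.16 in R 4.3.3: filterByExpr by group, TMM, robust glmQLFit over all 12 mice (8 residual degrees of freedom) and glmQLFTest, with Benjamini-Hochberg adjustment over 14670 genes at 0.05. The SE is the log2 fold change divided by the square root of F. The common coefficient of variation was 0.215. Counts of replicate mice differed well beyond sampling noise (chi-square per gene of 20.7 or more), so each counts as 1 replicate. Read counts are not independent molecules.

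Named are the 15 genes with the smallest p in each direction whose mice do not overlap, the 8 in each direction with the largest fold change at 5 CPM or more, up to 4 called members per list or else the 2 with the smallest p, and the 2 most abundant members per marker list. Some of the genes it selects are not reported here. Genes beyond this rule were chosen after their values were seen. The part of the series, the members and the lists were chosen with earlier results of these data known, and list members come from general knowledge. Lists are described by counts and medians without a test. Alternatives were RLE factors, library size alone, no filter, at least 10 counts in every mouse, DESeq2 1.42.0, a fit of the compared groups alone, effective-length offsets, no robust estimation, no pancreatic genes, and leaving out each mouse. Columns of the authors' own comparisons are not part of these files.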

Additional observations from a re-analysis of the deposited data

Results flagged for a closer look

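The response of Cyp39a1 differed between the regular-fat and the high-fat diets by the interaction test. These diets differed in supplier and in the intake of sulfur amino acids as well as in fat, and these cannot be told apart here. The rise was larger in the HF mice by 1.22 on the log2 scale (SE 0.14, edgeR adjusted p = 0.0106). The gene rose in both sets of mice, by 2.33 in RF.SAAR over RF.Ctrl and by 3.55 in HF.SAAR over HF.Ctrl. With offsets for effective length the difference was 1.14 and no longer passed (adjusted p = 0.0709). With 1 of the 12 mice left out it ranged from 1.15 to 1.28, and it did not pass without RF.Ctrl mouse 2 (adjusted p = 0.0613), RF.SAAR mouse 3 (0.051), HF.Ctrl mouse 2 (0.0582) or HF.SAAR mouse 3 (0.0613). It passed under the other alternatives run, with adjusted p from 3.87e-10 (DESeq2) to 0.0459.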

How the results depend on the processing

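No paired analysis was possible, because the groups hold different mice and the labels carry no replicate numbers. The numbers used here follow accession order and only name a mouse. With library size alone, 359 genes were higher, 66 lower and 231 called in both fat levels with the same sign, where TMM gave 88, 130 and 115. With DESeq2 these were 262, 329 and 265, with 16 interaction genes in place of 1. With only the groups compared, 65 genes were higher and 94 lower on regular fat, of which 55 and 78 were among the original calls. The number called in both was then 66. Effective-length offsets left 0 interaction genes, with 572 at an unadjusted p under 0.05. Leaving out 1 mouse gave 32 to 97 genes higher, 55 to 147 lower, 59 to 94 called in both and 0 to 2 interaction genes. Without RF.Ctrl mice 1, 2 and 3 the higher and lower counts were 35 and 64, 44 and 55, and 32 and 55. Without RF.SAAR mice 1, 2 and 3 they were 60 and 64, 55 and 97, and 37 and 58, and without HF.Ctrl mouse 1 they were 59 and 84. The count called in both moved by over 1.5 times without any RF.Ctrl mouse (63 to 69), RF.SAAR mouse 1 or 3 (74 each), HF.Ctrl mouse 1 (59) or HF.SAAR mouse 1 or 3 (61 and 76). Fewer mice in the fit is part of each of these. The other alternatives that kept all mice held every count within 1.5 times. Of 93 named genes called, 58 were called under all 9 alternatives that kept the mice, 49 in all 12 fits without a mouse, and 0 changed sign.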

Other observations

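Some called genes outside the lists and outside the naming rule code for proteins of other compartments, and they were picked after their values were seen, so they support no theme. Gaa, lysosomal alpha-glucosidase, rose from 45.4 to 63.5 CPM (0.48 ± 0.10, adjusted p = 0.0251). Arsa, lysosomal arylsulfatase A, rose from 32.4 to 50.1 CPM (0.63 ± 0.12, adjusted p = 0.0181), and Grn, the progranulin precursor, from 112 to 173 CPM (0.62 ± 0.13, adjusted p = 0.0295). Hspa9, the Hsp70 of mitochondria, had the smallest rise that was called, from 549 to 705 CPM (0.36 ± 0.08, adjusted p = 0.0359). Lifr, the receptor of leukemia inhibitory factor, fell from 272, 323 and 251 CPM to 165, 125 and 162 CPM (-0.91 ± 0.18, adjusted p = 0.0242). Nudt7, which splits coenzyme A in peroxisomes, fell from 645, 667 and 579.9 CPM to 224, 289 and 311 CPM (-1.20 ± 0.22, adjusted p = 0.0209). In Lifr and Nudt7 no restricted mouse reached the lowest control.

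Some genes with large differences were not called. Scd1, the stearoyl-CoA desaturase, was at 1105 CPM in control and 225 CPM in restricted mice (-2.30 ± 0.47, adjusted p = 0.0534), and Fgf21, a hepatic hormone of nutrient stress, at 1.59 and 21.5 CPM (3.73 ± 0.75, adjusted p = 0.0533). The paper reports Scd1 as lower and Fgf21 as higher under restriction, from DESeq2 on these libraries and from RT-qPCR. Dbp, an output gene of the clock, was at 87.9 and 24.1 CPM (-1.86 ± 0.58, adjusted p = 0.187).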
